A study of Drosophila melanogaster with 4 samples.

Results

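The EGF receptor pathway was read through 10 genes, chosen by symbol among the 17103 genes of the deposited table: the receptor Egfr, the ligands spi, Krn and vn, the rhomboid proteases rho and stet, the inhibitors aos and sty, the transcription factor pnt and the GTPase Ras85D. The samples were gonads of Drosophila melanogaster embryos of stage 17, grown at 25 °C for 18 to 22 h and sorted for GFP. The 2 control samples carried vas-GFP, a transgene that marks germ cells, and the 2 Phf7 mutant samples carried vas-GFP together with the Phf7[DN18] allele, written ΔN18 in the study. Phf7 encodes a reader of histone marks that acts in the male germline. The sort collected GFP-positive particles enriched for intact gonads, from both sexes and with somatic cells, so fewer cells of a type and less RNA per cell cannot be told apart, nor can male from female cells. Each library holds reads from the 3′ ends of polyadenylated transcripts.

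Egfr is a receptor tyrosine kinase. Spi and Krn are made as membrane precursors that become active ligands once a rhomboid protease has cut them, whereas Vn is a secreted ligand. The bound receptor acts through Ras85D and a cascade of kinases on nuclear factors of the ETS family, of which pnt encodes an activator. Argos, the product of aos, binds the ligand outside the cell and Sprouty, the product of sty, acts inside it, and both are known feedback inhibitors. In the fly testis and larval ovary germ cells send EGF ligands to the somatic cells around them, and stet is needed in germ cells for that signal and for the soma to enclose them.

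The table gives 1 mean normalized count per gene over the 4 libraries, and reads per library were recovered from it for genes with a mean up to 1000. 8 of the 10 members have such reads. They are given below as normalized reads, the reads of a library divided by its size factor, for libraries called control a, control b, mutant a and mutant b. The letters do not pair a control with a mutant library. The recovered genes held 1536698 to 2130832 reads per library. Nothing in the labels says that the samples came from separate cultures, while the study calls them biological replicates, so p-values measure the spread between these samples only, 2 libraries per genotype throughout.

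Phf7, the targeted gene, had 761 and 601 normalized reads in the controls, against 7.97 and 39.2 in the mutants, a 28.9-fold lower mean. The genotypes did not overlap, and whether the reads lie in the deleted part of the gene is not known here. Germ cell genes were present, with a mean count of 3599 for vas, an RNA helicase, and 583 for nos, a translational repressor, and so was tj, a transcription factor of the somatic gonad, with 3411. Markers of other tissues differed between libraries of the same genotype. The 12 muscle markers summed to 958 and 3204 normalized reads in controls a and b, against 4645 and 1087 in mutants a and b. The 8 neuron markers with recovered reads summed to 561 and 1899 in the controls, against 3929 and 816 in the mutants, and 9 midgut markers to 117 and 2353 and to 2583 and 383. None of these muscle and neuron markers was at 0 in any library, and of the midgut markers thetaTry was at 0 in control a. Control b and mutant a were thus the libraries with more RNA of other tissues.

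All 10 members were detected. sty had by far the most reads of them, with a mean count of 10495, above 98.9% of the detected genes, and spi, the main ligand, followed with 1683, above 93.6%. rho had a mean count of 438, Ras85D 381, aos 330, Egfr 303, pnt 294 and stet 264. vn had 186, and Krn had the fewest with 74.8, above 48.5% of the detected genes. In a 3′-end library a transcript gives reads mostly near its end, so these counts do not scale with transcript length, although the use of alternative ends and the efficiency of priming may still differ between genes. On this scale of mean counts spi was 9.05-fold above vn, 22.5-fold above Krn and 53.8-fold above grk, the ligand of the oocyte. sty was 31.8-fold above aos and 34.7-fold above Egfr.

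**Figure D1:**
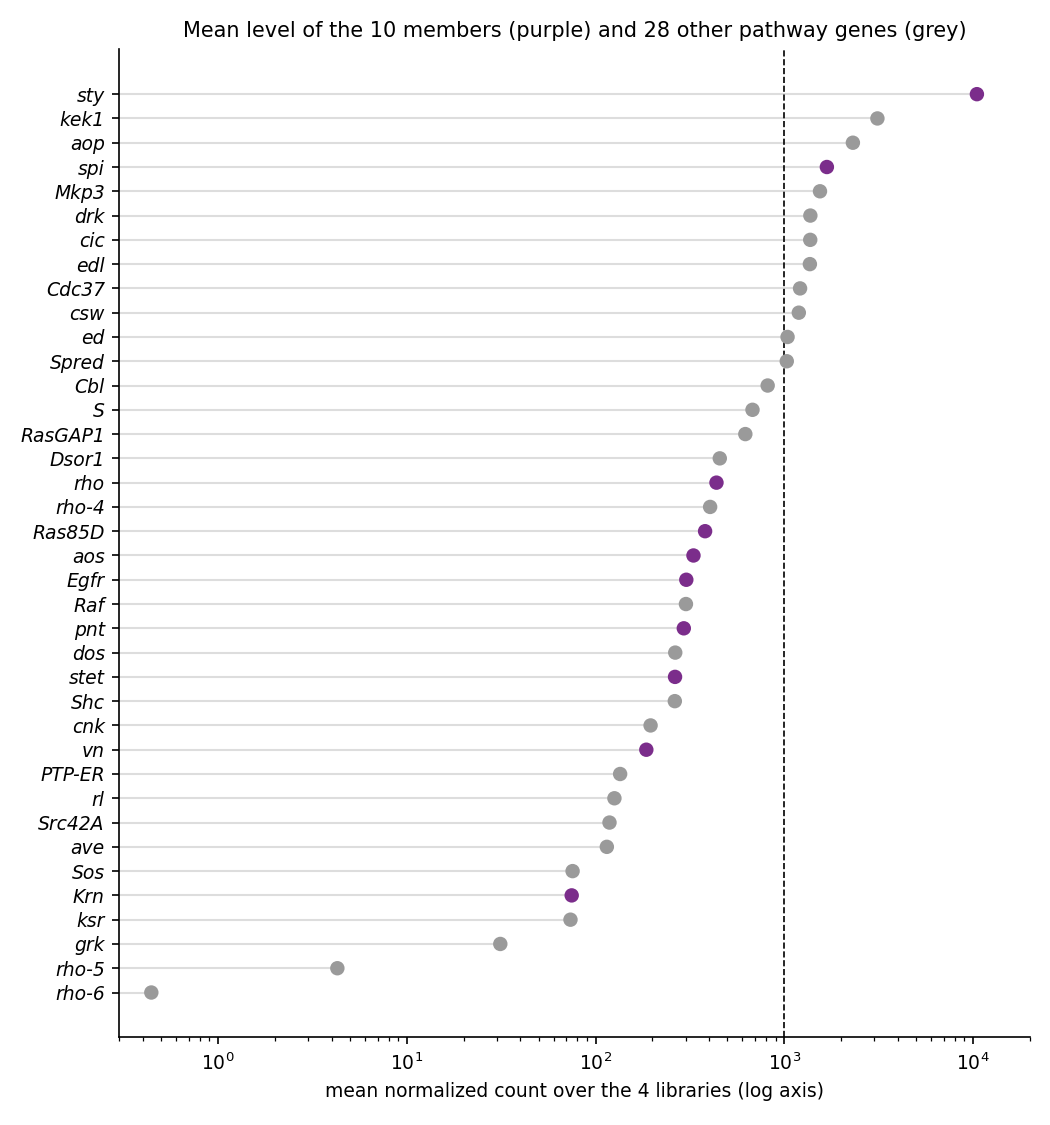
Mean normalized count over the 4 libraries on a log axis, for the 10 members in purple and 28 other detected genes of the pathway in grey. The dashed line marks a mean of 1000, the limit for recovered reads; sty at 10495 and spi at 1683 are the members above it, and Krn at 74.8 is the lowest member.

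The order of the members between rho and stet is not fixed by these data. Over the 4 libraries rho ranged from 293 to 567 normalized reads, Ras85D from 303 to 483, aos from 264 to 403, Egfr from 195 to 506, pnt from 242 to 339 and stet from 194 to 297, so each of these ranges overlapped that of the next gene in the order. vn, from 151 to 264, overlapped stet. Krn, from 65.6 to 81.4, lay below the lowest value of every other member with recovered reads.

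No member was called between the genotypes. limma on log2(normalized reads + 1) of the 7653 genes with a mean count from 10 to 1000 called 0 of the 8 members at an adjusted p under 0.05, where it called 0 of all genes (0% of 7653), and limma-voom likewise called 0 members and 0 genes. At an unadjusted p under 0.05 the limma fit held 0 members against 449 genes (5.87%), 178 higher in mutants (2.33%) and 271 lower (3.54%). At the same threshold limma-voom held 1 of the 8 members, aos, against 391 of 7653 genes. limma with a trended variance also held aos alone, against 447 of 7653 genes. The adjusted p of the members lay between 0.875 and 0.991. Phf7 itself was not called by the limma fit, with a log2 difference of -5.16 and an adjusted p of 0.537, so a member without a call is not shown to be unchanged. The study, which ran DESeq2 on these samples, reported genes that differed between the genotypes. The count of 0 genes belongs to the fits used here. 6 members had a lower level in mutants and 2 a higher one, beside 49.1% of all genes fitted with the lower mean in mutants. The median log2 difference of the members lay between -0.17 (pnt) and -0.16 (rho), beside 0.01 over all genes fitted. The control and mutant libraries did not overlap in 4 of the 8 members, 3 lower and 1 higher in mutants, beside 32.9% of all genes fitted, of which 17.5% were lower and 15.4% higher. An exact permutation test of 1 gene with 2 against 2 libraries cannot give a p under 0.333.

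**Figure D2:**
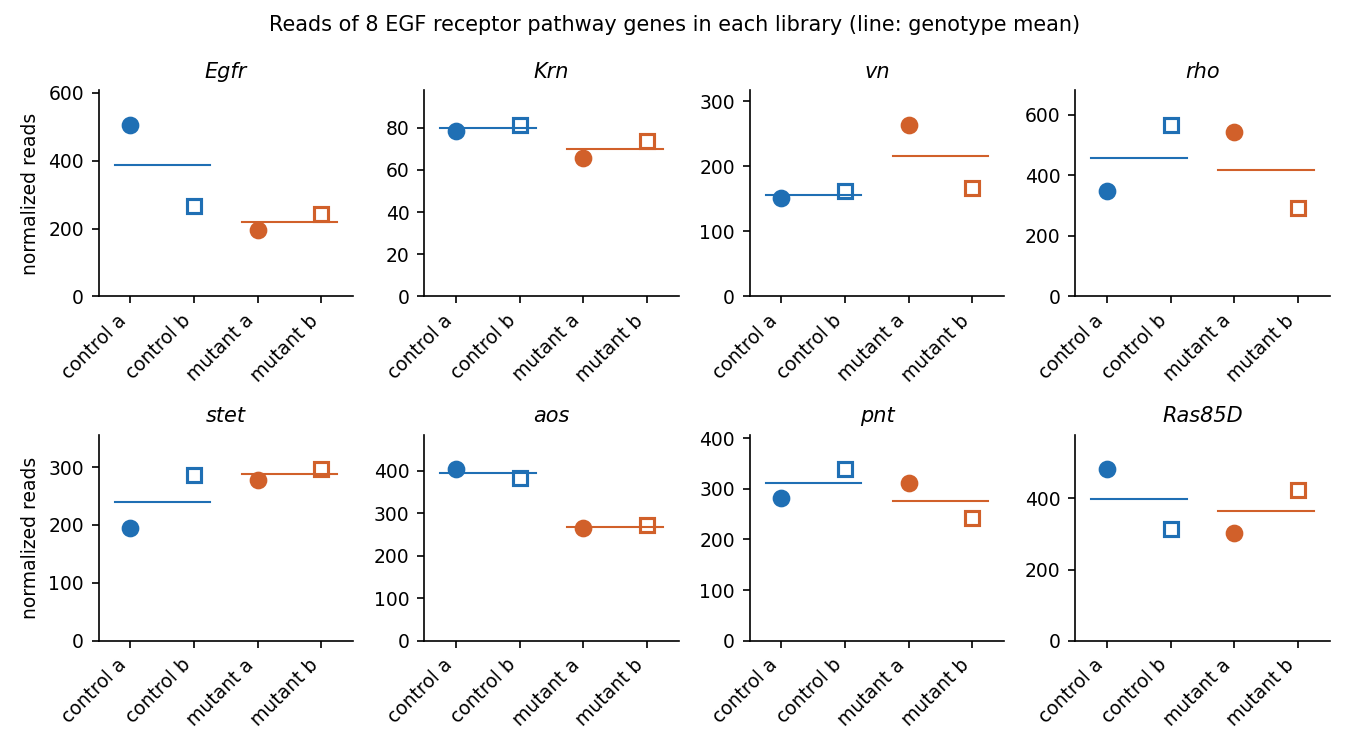
Normalized reads of the 8 members with recovered reads in control a and b (blue) and mutant a and b (orange), with a line at each genotype mean and a vertical axis from 0 in each panel. aos lies at 383 and 403 in controls and at 264 and 272 in mutants, Egfr stands apart in control a at 506, and rho is high in control b at 567 and mutant a at 542.

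Egfr, the receptor, had 506 and 266 normalized reads in controls a and b, against 195 and 244 in mutants a and b. Every mutant value lay below every control value, but control a stood 1.90-fold above control b and carried most of the difference. The genotype means were 386 ± 169.7 and 219.5 ± 34.8 (SD, n = 2 each), a 1.76-fold lower mean in mutants. The log2 difference was -0.75 with a 95% interval from -1.98 to 0.48 (limma, adjusted p = 0.956), and -0.29 without control a. The difference between the controls was itself larger than counting error, with a log2 ratio of control b over control a of -0.93 and a counting interval from -1.16 to -0.70. By the Ensembl annotation in dm6 coordinates, as for all positions given here, Egfr lies on chromosome arm 2R, and 5 genes annotated on the opposite strand inside it share no exonic base with it.

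Among the ligands, spi was read most but cannot be compared between genotypes. Its mean lies above the limit of 1000, and 4 different sets of whole reads give it, of which 1 has the higher mean in mutants and 3 have the lower one. It lies on 2L at 19567900 to 19577315 on the minus strand, with a single annotated transcript end. vn, a ligand that resembles neuregulins, had 151 and 162 normalized reads in controls a and b, against 264 and 167 in mutants a and b. The 2 mutant values were above both controls, but mutant b exceeded control b by little, and mutant a was the library that stood out. Its log2 difference was 0.42 with an interval from -0.56 to 1.40 (limma, adjusted p = 0.985), and 0.09 without mutant a. Mutant a also held more RNA of muscle, neurons and midgut, whose part in the value of vn was not tested. vn lies on 3L at 5813338 to 5845664 on the minus strand and overlaps no annotated gene.

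Krn, the other ligand that is cut by rhomboids, had 78.2 and 81.4 normalized reads in controls a and b, against 65.6 and 74.0 in mutants a and b. The genotypes did not overlap, yet the means of 79.8 ± 2.23 and 69.8 ± 5.94 (SD, n = 2 each) differed by 1.14-fold only, and each library had 67 to 83 reads. The counting intervals of the log2 ratio between libraries of the same genotype reached from -0.42 to 0.53 in controls and from -0.63 to 0.28 in mutants, while the log2 difference between the genotypes was -0.19 (limma interval from -0.91 to 0.52, adjusted p = 0.985). Krn lies on 3L at 17649562 to 17654280, whole inside Ndfip on the same strand. The pair share 289 exonic bases, none of them in the 500 bases before the end of the Krn transcript, where most reads of a 3′-end library fall.

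The rhomboid proteases rho and stet are neighbours on 3L. rho lies at 1463811 to 1468944 on the plus strand and stet at 1475438 to 1489547 on the minus strand, with 6493 bases between them. rho had 348 and 567 normalized reads in controls a and b, against 542 and 293 in mutants a and b. Its genotypes overlapped, with means of 457 ± 155 and 418 ± 176 (SD, n = 2 each). The log2 difference was -0.16 (limma interval from -1.52 to 1.21), and it turned to 0.20 without control b and 0.29 without mutant b. Control b exceeded control a, and mutant a exceeded mutant b, beyond counting error, with log2 ratios of 0.71 (counting interval 0.51 to 0.91) and 0.89 (0.69 to 1.08). These are the libraries with the higher sums of muscle, neuron and midgut markers. rho lies inside Ptp61F on the opposite strand, without a shared exonic base, and Ptp61F has a mean count of 1764 and no value per library.

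stet, the rhomboid of germ cells, had 194 and 287 normalized reads in controls a and b, against 278 and 297 in mutants a and b. Control a was low and the other 3 libraries lay close together, so the genotypes overlapped. The means were 240.4 ± 65.5 and 287 ± 13.1 (SD, n = 2 each), and the log2 difference of 0.28 (limma interval from -0.63 to 1.19, adjusted p = 0.985) was 0.0027 without control a. Between the mutants stet differed by less than counting error, with a log2 ratio of mutant a over b of -0.09 (counting interval -0.32 to 0.13), where rho had 0.89. The 7 of 12 germ cell markers with recovered reads summed to 3605 and 3213 in the controls, against 3467 and 3690 in the mutants. Single markers differed in order. nos, like stet, was lowest in control a at 450, while zpg and spn-E were highest there at 477 and 526. The part of germ cell content in the value of stet was not tested. By mean count over the 4 libraries rho was 1.66-fold above stet, and both had reads in every library.

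aos had the smallest spread beside its difference among the 8 members with recovered reads. It had 403 and 383 normalized reads in controls a and b, against 264 and 272 in mutants a and b. Libraries of the same genotype differed by less than counting error, with log2 ratios of -0.08 (counting interval -0.29 to 0.14) in controls and -0.04 (-0.27 to 0.19) in mutants. The same libraries differed widely in the markers of other tissues, whose part in the values of aos was not tested. The means of 393 ± 14.7 and 268 ± 5.50 (SD, n = 2 each) were 1.47-fold apart. The log2 difference was -0.55 with a standard error of 0.24 and an interval from -1.25 to 0.14, and it did not pass the test (limma, adjusted p = 0.875). Leaving out any 1 library moved it only between -0.59 and -0.51. Its unadjusted p was 0.0910 in limma and 0.0490 in limma-voom, where the adjusted p was 0.972. In limma with a trended variance the unadjusted p was 0.0484 and the adjusted p 0.842. Over all alternatives the adjusted p ran from 0.427, with a covariate of tissue markers, to 1.

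aos lies on 3L at 16470386 to 16483650 on the minus strand, in intronic sequence of CG33158 on the opposite strand. The pair share no exonic base. CG33158, chosen for this position and with its values seen, had 345 and 317 normalized reads in controls a and b, against 101 and 158 in mutants a and b, a 2.56-fold lower mean in mutants. Its log2 difference was -1.38 (limma interval from -2.35 to -0.42, adjusted p = 0.704). The strand setting of the counting is not given in the sources used here, and a share of aos reads that would come from CG33158 was not tested.

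**Figure D3:**
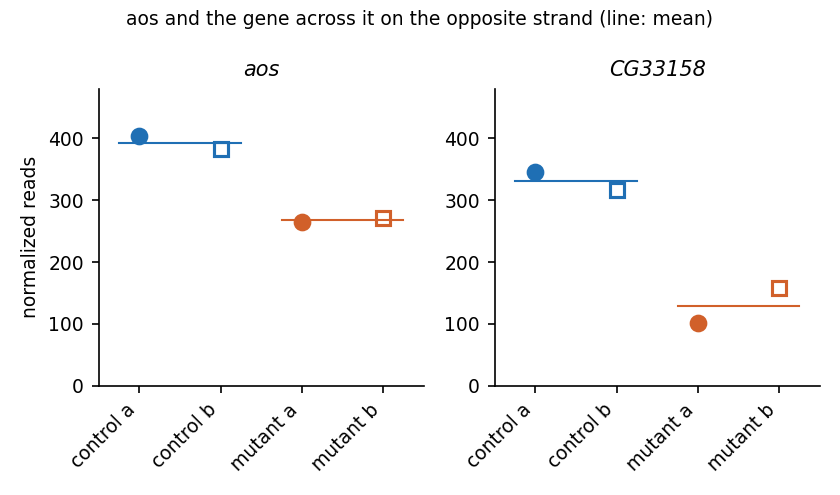
Normalized reads of aos and of CG33158, the gene annotated across it on the opposite strand, in control a and b (blue) and mutant a and b (orange), with lines at the genotype means. aos has means of 393 in controls and 268 in mutants and CG33158 has 331 and 129, and no mutant value reaches a control value in either gene.

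sty, the second inhibitor, was the member read most, but its mean count of 10495 lies far above the limit for recovered reads, so no value per library is given and the genotypes cannot be compared. It lies on 3L at 3401153 to 3424935 on the minus strand, and its only annotated overlaps are short RNAs of the same strand that share no exonic base with it. kek1, a transmembrane inhibitor of Egfr outside the 10 members, was the second most abundant gene of the pathway, with a mean count of 3118, so sty was 3.37-fold above it and kek1 was 9.43-fold above aos.

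Ras85D and pnt, which act below the receptor, did not separate the genotypes. Ras85D had 483 and 313 normalized reads in controls a and b, against 303 and 424 in mutants a and b. Control a and mutant b were the high libraries, so the pattern was the inverse of rho and of the tissue markers, with log2 ratios of -0.62 for control b over a (counting interval -0.84 to -0.40) and -0.49 for mutant a over b (-0.69 to -0.28). Its log2 difference between genotypes of -0.12 (limma, adjusted p = 0.991) turned to 0.19 without control a and to 0.12 without mutant a. pnt had 283 and 339 normalized reads in controls a and b, against 311 and 242 in mutants a and b, and its log2 difference was -0.17 with a standard error of 0.29 (limma, adjusted p = 0.985), or 0.0068 without mutant b. pnt lies on 3R at 23290231 to 23346167 and Ras85D on 3R at 9510561 to 9513067, both on the minus strand.

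The differences between libraries of the same genotype were thus of several kinds. rho, vn and pnt, 3 of the 8 members, had more normalized reads in b than a among the controls and in a than b among the mutants, as the muscle and midgut markers did, an order held by 35.9% of all genes fitted. In rho and pnt, 2 of 8, both of these libraries also lay above both of the others, beside 27.0% of all genes. Egfr, aos and Ras85D, also 3 of 8, had the inverse order, as 36.7% of all genes did, though for aos both steps were within counting error. Of the markers, 12 of 12 for muscle, 7 of 8 for neurons and 8 of 9 for midgut had the order of rho, and 2 of 5 somatic gonad and 2 of 7 germ cell markers had it. The median absolute log2 ratio between libraries was 0.45 in controls and 0.43 in mutants over all genes fitted. Of the members, Egfr, rho, stet and Ras85D exceeded the former in controls, and rho, vn and Ras85D the latter in mutants. The share that RNA of other tissues had in each of these values was not tested. A covariate of tissue markers was fitted to the genotype differences only.

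**Figure D4:**
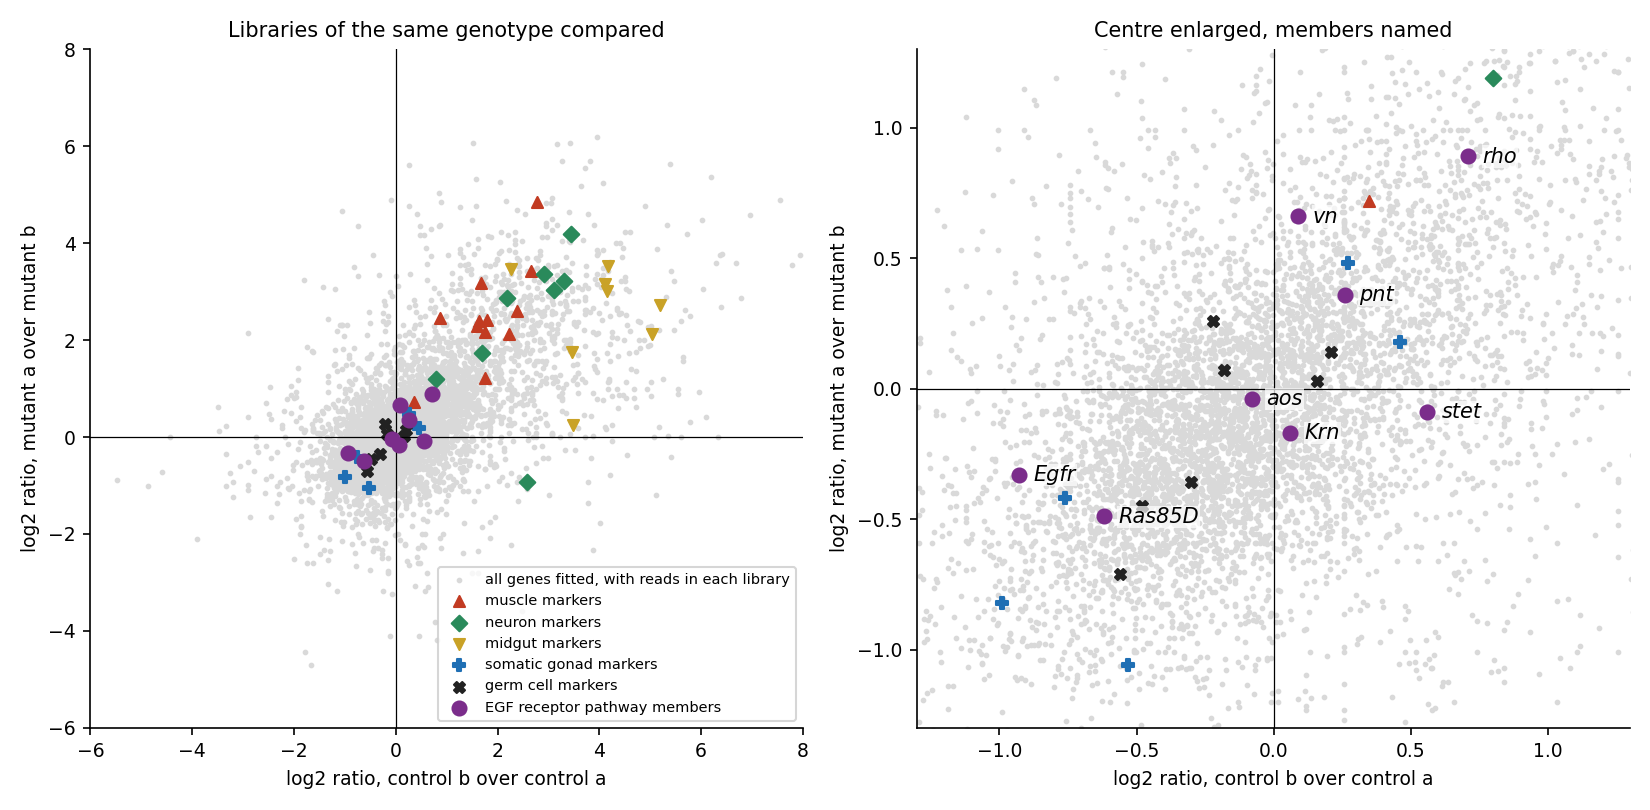
Log2 ratio of control b over control a against log2 ratio of mutant a over mutant b, for all genes fitted with reads in every library (grey), tissue markers (coloured) and the 8 members (purple), with the centre enlarged on the right. rho lies towards the muscle and neuron markers at 0.71 and 0.89, Egfr and Ras85D lie on the opposite side, with 3 of 5 somatic gonad and 3 of 7 germ cell markers, and aos lies near 0 on both axes.

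Of 10 markers of the somatic gonad, the tissue that receives the signal, none was called by limma and none of the 5 fitted had an unadjusted p under 0.05. The 6 with recovered reads summed to 2178 and 1984 normalized reads in controls a and b, against 1421 and 1489 in mutants a and b, a sum made up mostly of esg and upd1. The log2 differences of the 5 fitted ran from -0.87 for upd1 to -0.04 for Six4, with a median of -0.39. The genotypes did not overlap in 2 of them (40%), esg and upd1, beside 32.9% of all genes. The part of these values in those of Egfr and aos was not tested. The 4 most abundant markers of the list, fax, bnb, tj and zfh1, have means above 1000 and no value per library. The sum therefore leaves them out. eya had 72.2 and 36.5 normalized reads in the controls, against 29.2 and 51.7 in the mutants. Wnt2 had 416 and 245 in the controls, against 231 and 309 in the mutants. Both overlapped between the genotypes, as did Six4. The markers of the trachea, a tissue shaped by this pathway, were read little, with sums of 87.4 and 226 in the controls, against 183 and 95.3 in the mutants. trh, which defines this tissue, had 0 reads in control a, and uif had 0 in mutant b. verm had 9 and 13 reads in the controls and 0 in both mutants.

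In the wider pathway 28 of 29 further genes were detected, all but the rhomboid gene ru, which had a mean count of 0. 10 of them, among them kek1, the ETS repressor gene aop with 2311, the phosphatase gene Mkp3 with 1547 and the adaptor gene drk with 1375, had mean counts over 1000 and so no value per library. aop was 7.87-fold above pnt by mean count. rho-5 and rho-6, other members of the rhomboid family, had mean counts of 4.29 and 0.44, below the minimum of the fit. rho-4, a rhomboid gene on X, had 393 and 349 normalized reads in the controls, against 413 and 465 in the mutants, close to rho in level and above both controls in each mutant library.

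Of the 16 further genes fitted, limma called 0, with 0 at an unadjusted p under 0.05. 10 were lower and 6 were higher in mutants, with a median log2 difference of -0.10, and the genotypes did not overlap in 6 of them (37.5%), 5 lower and 1 higher, beside 32.9% of all genes. Src42A, a kinase of the Src family, had 139 and 157 normalized reads in the controls, against 98.3 and 80.2 in the mutants (log2 difference -0.73, interval -1.50 to 0.05, limma adjusted p = 0.833). ave, a scaffold protein of the Raf complex, had 158 and 128 in the controls, against 87.7 and 85.5 in the mutants, with a log2 difference of -0.71 and an interval from -1.47 to 0.05, and it overlaps Rpn6 on the opposite strand. Sos, the exchange factor that loads Ras, had 87.4 and 86.3 in the controls, against 67.3 and 61.5 in the mutants. Each of these 3 genes had its mutant values below its control values, and none passed the test.

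Dsor1, the kinase that activates the MAP kinase, had 363 and 474 normalized reads in the controls, against 548 and 437 in the mutants, and Cbl, a ubiquitin ligase that takes the receptor from the surface, had 678 and 824 in the controls, against 1018 and 749 in the mutants. Both overlapped between the genotypes, and both were higher in control b and mutant a than in their partner libraries. All 3 adaptor and exchange factor genes that were fitted, Sos, Shc and dos, had log2 differences below 0, from -0.46 to -0.08, while the 7 kinases and scaffolds ranged from -0.73 to 0.24.

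**Figure D5:**
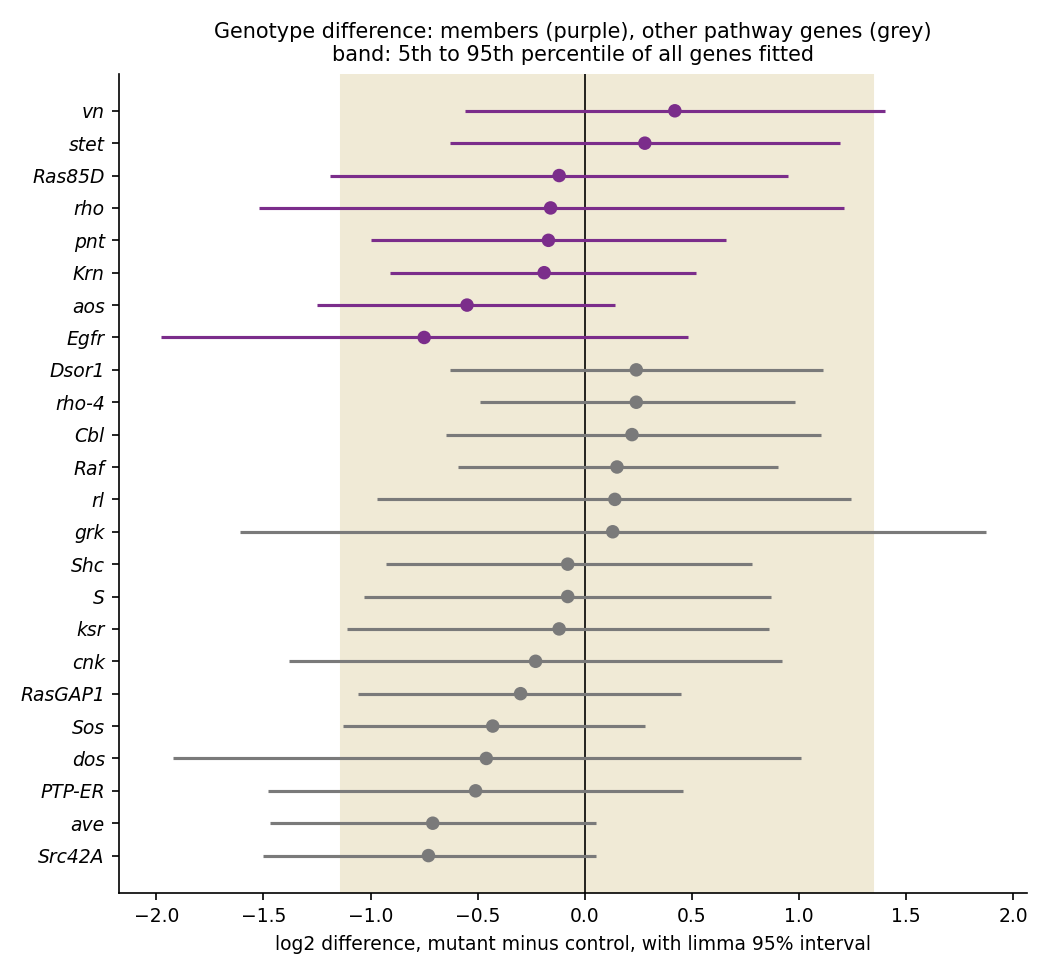
Log2 difference, mutant minus control, with the 95% interval of limma for the 8 members (purple) and 16 further pathway genes (grey), beside the 5th to 95th percentile of all 7653 genes fitted (band, -1.14 to 1.35). Every interval crosses 0, and the values run from -0.75 for Egfr to 0.42 for vn among the members.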

How the data were processed

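The authors aligned 3′-end reads to dm6 (HISAT2), assigned them to genes (htseq-count) and ran DESeq2. For these programs, versions and strand setting: not given in the sources used here. Their deposited table has 1 line per gene, with a signal, the mean of normalized counts across the 4 libraries, and with the authors' comparison: a log2 fold change (control over mutant), standard error, test statistic and p-values. These comparison columns were not used as results. Only the sign of the deposited log2 value served. At genes of which 1 read was seen, this sign gave each recovered library its genotype. It was also checked against the recovered genotype means at the 10082 genes where these lay over 5% apart, with the same direction at all 10082.

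Whole reads add up to a printed mean once multiplied by the worth of 1 read in its library (0.254 and 0.304 for the controls, 0.221 and 0.223 for the mutants). All 11208 genes with a mean up to 1000 had exactly 1 set of 4 whole numbers that gave the mean within rounding of its printed 15 digits. The allowance for rounding was widened only where no set was found. Of 1500 decoys, 8 (0.533%) had any such set. The 11208 genes hold 17.4% of the mean total of 10687188. From this follow size factors of 0.984 (control a), 0.823 (control b), 1.13 (mutant a) and 1.12 (mutant b).

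Genes of mean count 10 or more were fitted with limma 3.58.1 (R 4.3.3) on log2(normalized reads + 1), 2-sided, with Benjamini-Hochberg adjustment over all 7653. Fold changes on this scale understate the change of low genes. Counting intervals (95%, from the reads of both libraries) cover counting error only, as reads without molecular identifiers are not independent molecules. Positions and exons come from Ensembl release 115 (BDGP 6.54, dm6 coordinates).

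The members and lists were chosen with earlier results of these data known. Named are the 10 members, Phf7, of the 29 further pathway genes the 4 with the highest mean count and the 3 with the smallest unadjusted p in each direction, and the leading markers of the germ cell and somatic gonad lists. Other genes of any list named in the text, and the genes that overlap members, were chosen after their values were seen. Gap1 was matched as RasGAP1. Alternatives tried were other scalings, filters, pseudocounts, limma-voom, a trended variance, each library left out, and a covariate of muscle, neuron and midgut markers.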

Additional observations from a re-analysis of the deposited data

How the results depend on the processing

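No paired analysis was possible because the recovered libraries carry no replicate number. Under 13 alternatives 98 log2 differences of the members kept their direction, 6 turned it, and none passed an adjusted p of 0.05. With a mean count of at least 50 limma called 2 genes of all those fitted, neither of them a pathway gene, against 0 otherwise. Leaving out 1 library at a time, where the lone sample is assumed to vary like the other genotype, gave 5 to 7 of 8 members without overlap instead of 4, beside 60.4% to 71.3% of all genes instead of 32.9%. It turned the direction of Ras85D (-0.43 to 0.19), rho (-0.60 to 0.29) and pnt (-0.35 to 0.0068), and Ras85D was 0.0182 with the covariate of tissue markers. With that covariate the log2 difference was -0.59 for Egfr, -0.18 for Krn, 0.33 for vn and -0.35 for rho. For stet it was 0.22, for aos -0.54 and for pnt -0.25. Scaling moved the median log2 difference of all genes between 0.01 and 0.06. The limit of 1000 on the mean count leaves spi and sty without a comparison.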
